A study of Mus musculus with 6 samples.

Results

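Collagens are the main structural proteins of the matrix between cells, and the mouse heart table analysed here held 43 protein-coding collagen genes among its 20893 rows. Members were taken by name, as every protein-coding row whose symbol is Col, a number, a and a number, and were sorted into 11 fibrillar collagens, 8 basement membrane collagens, 8 FACIT collagens (fibril-associated collagens with interrupted triple helices) and 16 others. RNA came from hearts of C57BL6/J mice, 3 libraries with a germline knockout of Rbpms (genotype R1KO) and 3 Wildtype libraries, prepared as stranded mRNA libraries. The title of the series calls the hearts embryonic, whereas its design text calls them neonatal and names the controls as littermates, so the stage was not resolved here. The labels do not say that each library came from its own animal, and p-values therefore measure only the spread between these libraries. Rbpms encodes an RNA-binding protein, and the comparison addresses gene expression in hearts with this knockout.

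A collagen molecule is built from alpha chains that wind around each other, and each gene encodes one chain. Fibrillar collagens such as types I and III form the cable-like fibres that carry tension, and in the heart they are made mainly by fibroblasts. Type IV collagens form the sheet-like network of the basement membrane, which surrounds every cardiomyocyte and lies under the endothelium. FACIT collagens sit on the surface of fibrils, and type VI collagen forms beaded filaments between the cells and the fibres.

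Each deposited value is a read number that was scaled per library and rounded, called a scaled value here. Values of a group are given for replicates 1, 2 and 3 in that order. The read totals recovered by undoing the scaling were 5244596, 4773238 and 5805674 in the knockout libraries and 4655117, 5060111 and 4163230 in the wildtype libraries. Rbpms itself had scaled values of 375, 340 and 507 in the knockout against 1182, 1176 and 1317 in the wildtype libraries, and the groups did not overlap. By the balance of Xist and Y-linked genes, knockout replicate 3 and wildtype replicate 1 were female and the other libraries male. All 6 libraries held high levels of cardiomyocyte markers, for which the summed scaled value of 8 genes ran from 20177 to 22865 in the knockout and from 21222 to 23180 in the wildtype libraries. Among genes that mark neighbouring tissues, the albumin gene Alb was too low to test and stood at 3, 0 and 6 in the knockout and 0, 1 and 35 in the wildtype libraries. In bulk tissue, fewer cells of a type and less RNA per cell cannot be told apart.

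The collagen genes lie on 15 chromosomes, and several lie beside a partner. In the coordinates of the table (mm39), Col4a1 and Col4a2, the main type IV chains, lie head to head on chromosome 8 and overlap by 22 bases at their starts. Col4a4 and Col4a3 lie head to head on chromosome 1 with 71 bases between them, and Col4a6 and Col4a5 lie head to head on the X chromosome with 1308 bases between them. Col3a1 and Col5a2 lie tail to tail on chromosome 1, separated by 24614 bases. The shared stretch of the first pair is shown because the values of these 2 genes followed each other most closely of the pairs examined. Those pairs were picked by hand, in part with the values known. Ratios of other pairs, such as Col4a1 with Col6a2 on another chromosome, were not formed and can be as steady. It is taken from RefSeq promoter windows of the build GRCm38.p6 (chr8:11312805-11312826) and is written 5′ to 3′ on the strand of Col4a2.
Col4a1 and Col4a2, shared start: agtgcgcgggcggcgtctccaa

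The 250 bases before the RefSeq start are shown for 2 more pairs. Col1a2 and Col3a1 are high in the heart and followed each other across the libraries, although they lie on different chromosomes. Col4a5 and Col4a6 face each other across the X-linked interval and differed in level. The letters CCAAT were searched on both strands, and matches are in capitals. So are matches, also on both strands, to a TATA box spelled TATAAA, and no window shown holds both motifs. All 4 windows are written 5′ to 3′ on the strand of their gene in GRCm38.p6. Their positions are chr6:4505368-4505617 on the plus strand for Col1a2, chr1:45311288-45311537 on the plus strand for Col3a1, chrX:141475169-141475418 on the plus strand for Col4a5 and chrX:141474077-141474326 on the minus strand for Col4a6.
Col1a2: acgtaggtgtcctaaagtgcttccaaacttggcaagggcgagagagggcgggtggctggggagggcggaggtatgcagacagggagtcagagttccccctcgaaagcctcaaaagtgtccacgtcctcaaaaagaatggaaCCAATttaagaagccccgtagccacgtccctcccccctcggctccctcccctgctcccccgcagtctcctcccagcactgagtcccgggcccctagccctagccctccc
Col3a1: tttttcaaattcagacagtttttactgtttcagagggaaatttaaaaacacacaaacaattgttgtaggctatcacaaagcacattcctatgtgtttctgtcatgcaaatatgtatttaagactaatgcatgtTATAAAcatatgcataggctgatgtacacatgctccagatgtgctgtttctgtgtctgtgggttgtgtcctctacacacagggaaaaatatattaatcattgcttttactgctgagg
Col4a5: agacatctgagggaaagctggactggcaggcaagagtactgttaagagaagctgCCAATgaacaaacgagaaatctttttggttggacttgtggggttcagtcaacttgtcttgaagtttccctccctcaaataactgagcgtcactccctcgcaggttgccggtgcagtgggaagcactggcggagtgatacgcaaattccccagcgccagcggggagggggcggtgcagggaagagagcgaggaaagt
Col4a6: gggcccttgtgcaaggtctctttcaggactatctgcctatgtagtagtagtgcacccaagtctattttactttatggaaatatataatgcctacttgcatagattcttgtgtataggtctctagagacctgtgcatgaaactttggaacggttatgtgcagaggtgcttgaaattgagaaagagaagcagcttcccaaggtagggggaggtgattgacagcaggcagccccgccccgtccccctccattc
The RefSeq table held windows for 34 of the 43 collagen genes. CCAAT occurred on one strand or the other in 13 of 37 collagen windows (35.1%), against 33.8% of all 32851 windows of the same length. The TATA box letters occurred in 5 of 37 (13.5%), against 12.4% of all. A match is only a match of letters in these windows.

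Collagen transcripts made up 0.7053% ± 0.0528 (SD, n = 3) of the summed scaled values of the knockout libraries and 0.7224% ± 0.0352 (SD, n = 3) of those of the wildtype libraries. Few genes carried most of this. Per kilobase of transcript, the 5 highest genes held 47.5% of the summed collagen level and the 10 highest held 77.4%. By class, the fibrillar collagens held 39.7% of the level per kilobase, the basement membrane collagens 32.4%, the FACIT collagens 6.03% and the other collagens 21.9%. Col4a1 was the highest gene at a mean of 615 scaled units per kilobase, followed by Col3a1 at 592, Col4a2 at 575, Col1a1 at 538, Col1a2 at 520, Col6a2 at 507, Col6a1 at 423 and Col5a1 at 334. Neighbours among the first 6 overlapped in their ranges over libraries, while the lowest library of Col4a1 lay above the highest of Col6a2. Col4a1 ranged from 569 to 659 per kilobase, Col3a1 from 523 to 675, Col4a2 from 525 to 620, Col1a1 from 462 to 608, Col1a2 from 454 to 574 and Col6a2 from 474 to 544. Col5a1, at 311 to 363 per kilobase in the 6 libraries, lay below Col6a1 at 395 to 459 without overlap. Order and shares depend on the length used, here that of the transcript with the longest coding sequence. Per base of the union of all exons, recovered reads were 0.563 for Col4a2, 0.548 for Col4a1, 0.487 for Col1a1 and 0.398 for Col6a1. By that length Col3a1 was at 0.336, Col5a1 at 0.333, Col6a2 at 0.242 and Col1a2 at 0.224. At the other end, Col6a4, Col6a5, Col10a1 and Col17a1 were not tested, because they did not reach a scaled value of 10 in 3 libraries.

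**Figure D1:**
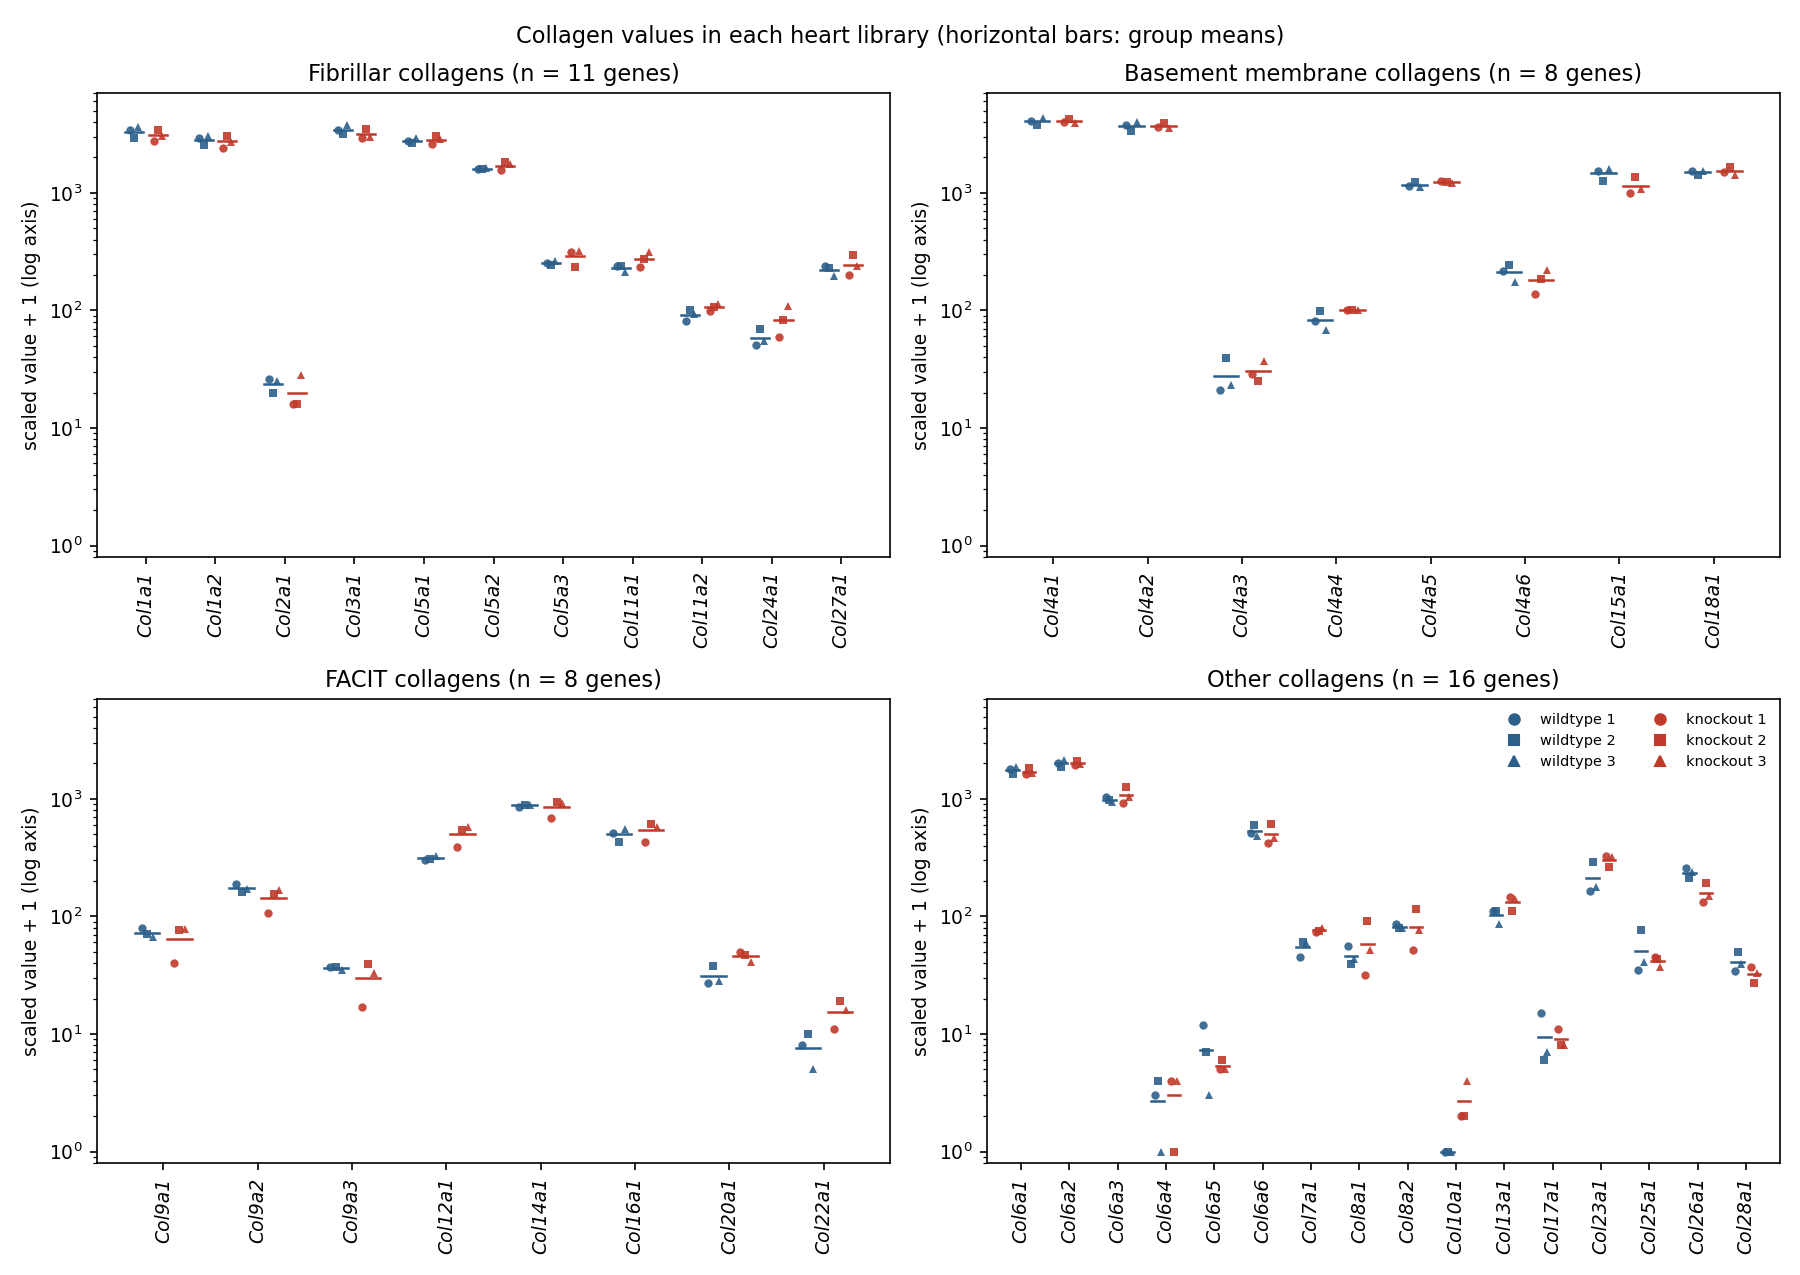
Scaled value plus 1 of each of the 43 collagen genes (log axis) in the 3 wildtype (blue) and 3 knockout (red) libraries, in 4 panels by class, with symbols for replicates and horizontal bars for group means. In all classes the spread between genes covered a far wider range than the gap between the groups of any 1 gene.

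None of the 39 tested collagen genes passed an adjusted p of 0.05 in the comparison of knockout with wildtype (limma, Benjamini-Hochberg over all genes), while 141 of 14974 tested genes did (0.942%). At an unadjusted p under 0.05, limma called 8 collagens, 6 higher and 2 lower in the knockout (20.5% of 39), against 16.4% of all genes (8.54% higher and 7.86% lower). The voom fit on recovered reads also called 0 collagens, and 0.514% of all genes. The 2 groups did not overlap for 7 tested collagens, 6 higher and 1 lower (17.9%), against 22.0% of all genes. The median log2 fold change of the collagens, knockout over wildtype, was 0.03, with 21 genes above and 18 below 0, and that of all genes was 0.0. In size, the median log2 fold change without its sign was 0.21 for collagens and 0.13 for all genes. Fold changes are on the scale of log2(scaled value + 1), which understates the change of low genes.

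**Figure D2:**
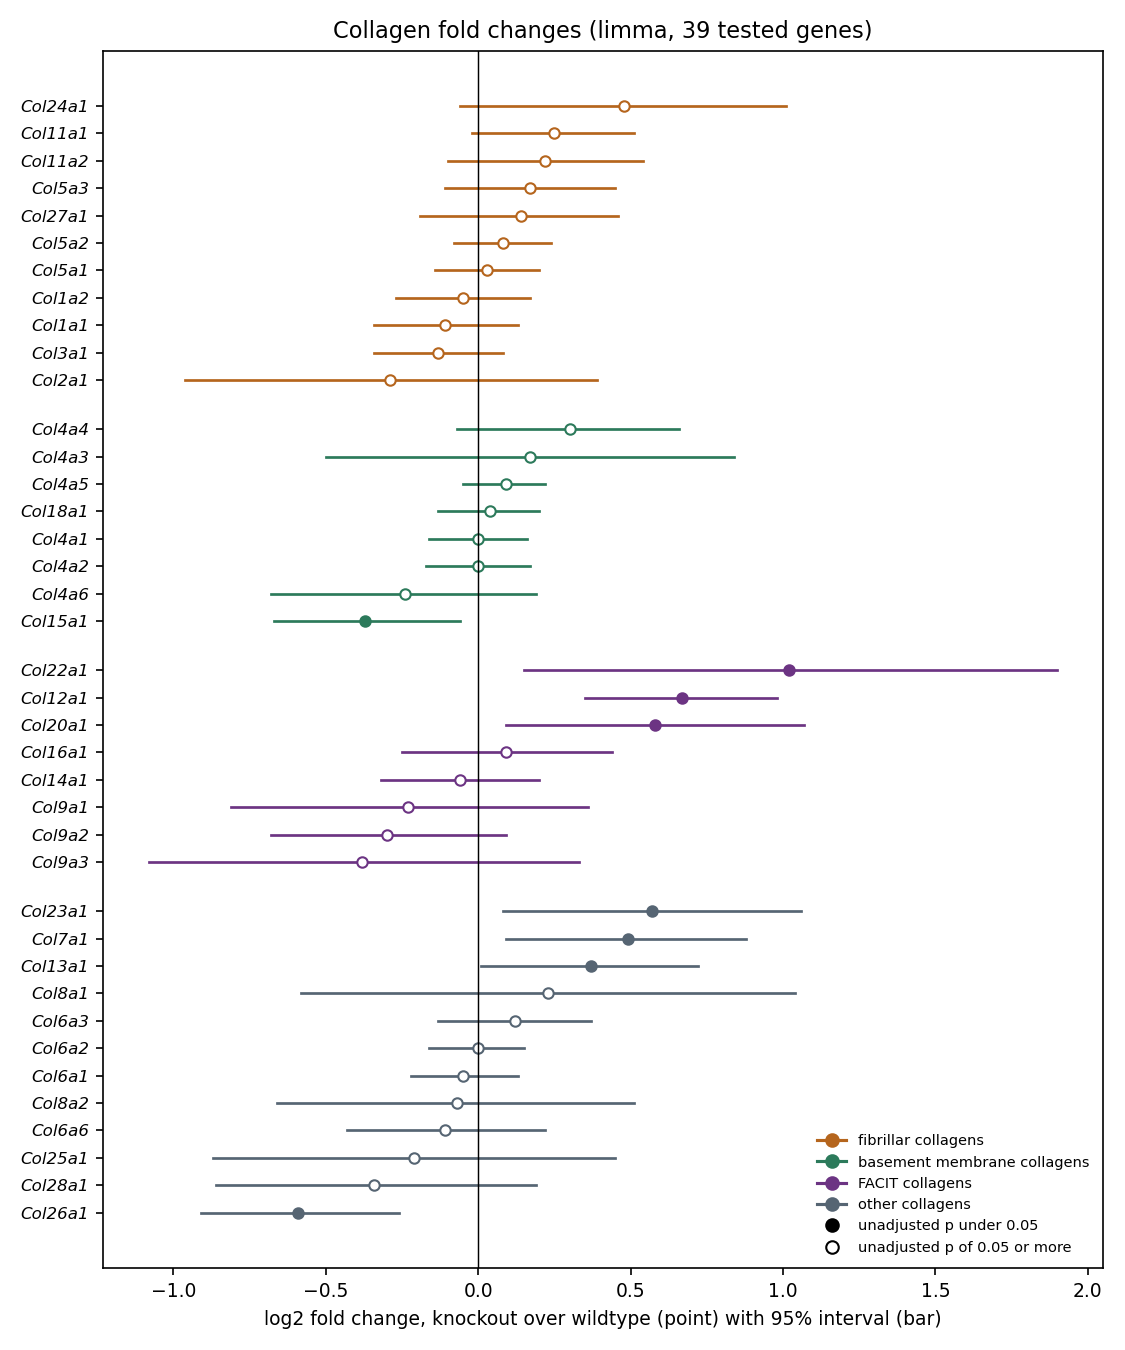
Log2 fold change of knockout over wildtype with its 95% interval (limma) for the 39 tested collagens, coloured by class and ordered by size within each class, with filled points at an unadjusted p under 0.05. The intervals are narrow for high genes such as Col4a1 (-0.16 to 0.16) and wide for low genes such as Col22a1 (0.15 to 1.90).

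Among the fibrillar collagens, 0 of 11 reached an unadjusted p of 0.05 in limma, against 16.4% of all genes. There were 7 log2 fold changes above 0 and 4 below, with a median of 0.08. Col3a1, the chain of type III collagen, had scaled values of 2910, 3515 and 3013 in the knockout and 3422, 3140 and 3754 in the wildtype libraries. Knockout replicates 1 and 3 were the lowest of the 6, and knockout replicate 2 lay within the wildtype range. The log2 fold change was -0.13 ± 0.09 (SE), with a 95% interval from -0.34 to 0.08. Col1a1, the alpha 1 chain of type I collagen, stood at 2738, 3440 and 3045 in the knockout and 3410, 2913 and 3603 in the wildtype libraries. Here too the groups overlapped, and the log2 fold change was -0.11 ± 0.10 (SE; 95% interval -0.34 to 0.13). Its partner Col1a2 stood at 2427, 3072 and 2702 against 2917, 2538 and 3029. Col5a1, a chain of type V collagen that starts the assembly of fibrils, stood at 2617, 3051 and 2854 against 2776, 2644 and 2924, a log2 fold change of 0.03 ± 0.07 (SE; 95% interval -0.14 to 0.20). These intervals hold changes of the major fibrillar chains to at most 0.34 on the log2 scale in either direction.

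The remaining fibrillar genes had log2 fold changes from -0.29 to 0.48. Col2a1, the cartilage collagen, was the lowest of the class with 15, 15 and 27 against 25, 19 and 24. Col24a1 had the largest difference of the class, 0.48 (95% interval -0.06 to 1.01), with 58, 82 and 107 in the knockout and 50, 69 and 54 in the wildtype libraries. Col11a1, which joins type V chains in thin fibrils, stood at 233, 274 and 315 against 237, 239 and 212 (log2 fold change 0.25, 95% interval -0.02 to 0.51). In each of these genes the groups overlapped.

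The basement membrane collagens were as even in their highest genes. Col4a1 had 4018, 4228 and 3948 in the knockout and 4086, 3767 and 4357 in the wildtype libraries, and Col4a2 had 3664, 3925 and 3526 against 3751, 3385 and 4001. Both had a log2 fold change of 0.00, with 95% intervals of -0.16 to 0.16 and -0.17 to 0.17. Col18a1, whose C-terminal fragment is endostatin, stood at 1516, 1658 and 1414 against 1520, 1412 and 1536 (log2 fold change 0.04, 95% interval -0.13 to 0.20). Col4a5, an X-linked type IV chain, stood at 1257, 1226 and 1220 against 1143, 1224 and 1121. The class had 1 gene at an unadjusted p under 0.05 in limma, Col15a1 (12.5% of 8, against 16.4% of all genes). It had 1 gene without overlap, Col4a4 (12.5%, against 22.0% of all genes). Col4a4 stood at 99, 100 and 99 against 81, 97 and 67 (log2 fold change 0.30, 95% interval -0.07 to 0.66).

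Col15a1 encodes the chain of type XV collagen, a proteoglycan of the basement membrane zone of muscle and capillaries. Its scaled values were 992, 1356 and 1079 in the knockout and 1536, 1262 and 1602 in the wildtype libraries. Knockout replicates 1 and 3 lay below all wildtype libraries, and knockout replicate 2 lay above wildtype replicate 2. The log2 fold change was -0.37 ± 0.13 (SE), and the adjusted p was 0.222 (limma). Over the 19 alternatives the log2 fold change of Col15a1 ran from -0.50 to -0.15 and the limma adjusted p from 0.0407 to 0.634. It passed in 1 of them, without knockout replicate 2 (-0.50), in a fit that called 3.34% of all genes. The value nearest 0 was that with the read depth recovered for each library as a term. Markers of endothelial cells summed to 9603 to 10088 in the knockout and 8724 to 9019 in the wildtype libraries, with none of the 10 at 0 in every library, and 0 of 10 passed the test. Emcn, Flt1 and Cldn5 had the smallest p of these markers, with log2 fold changes of 0.41, 0.31 and 0.22 (limma adjusted p = 0.0669, 0.14 and 0.224). Their part in the value of Col15a1 was not tested.

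FACIT collagens differed most among themselves, with 4 log2 fold changes above and 4 below 0 and a median size of 0.34. The knockout libraries also spread most in this class, with a median SD of 0.33 on the log2 scale against 0.15 for all genes. In limma, 3 genes had an unadjusted p under 0.05, all higher in the knockout (37.5% of 8). The background was 16.4% of all genes in either direction and 8.54% in that direction. The same 3 genes, Col12a1, Col20a1 and Col22a1, were the ones whose groups did not overlap (37.5% of 8). The background for that was 22.0% of all genes in either direction. The most abundant members of the class differed less. Col14a1 stood at 689, 939 and 926 in the knockout against 852, 894 and 892, a log2 fold change of -0.06 (95% interval -0.32 to 0.20). Col16a1 stood at 427, 608 and 578 against 512, 431 and 558, a log2 fold change of 0.09 (95% interval -0.25 to 0.44).

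Col12a1 encodes the chain of type XII collagen, which bridges fibrils in tissues under tension. It lies on chromosome 9 (mm39, chr9:79506273-79626113, minus strand). Its scaled values were 388, 543 and 575 in the knockout and 299, 309 and 326 in the wildtype libraries, so every knockout library lay above every wildtype library. The group means were 502 ± 100 and 311 ± 13.7 (SD, n = 3 each), and the fitted fold was 1.59 (95% interval 1.28 to 1.98). The log2 fold change of 0.67 ± 0.14 (SE) had an unadjusted p of 0.00115 and an adjusted p of 0.0669 (limma). It passed in 2 of the 19 alternatives, at 0.84 without knockout replicate 1 (adjusted p = 0.0287, in a limma fit that called 0.0405% of all genes) and at 0.56 without knockout replicate 3 (adjusted p = 0.0268, in a limma fit that called 4.75%), and its adjusted p ran up to 0.315 over the others. Set against Col1a1 in the same library, the ratio of levels per kilobase was 0.073, 0.0813 and 0.0973 in the knockout and 0.0452, 0.0546 and 0.0466 in the wildtype libraries. This ratio was outside the planned set and added with the values known. It reuses the Col12a1 values above and is no separate support.

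Col20a1 and Col22a1 were far lower in level. Col20a1 stood at 49, 46 and 40 in the knockout and 26, 37 and 27 in the wildtype libraries, with a log2 fold change of 0.58 ± 0.22 (SE) and a limma adjusted p of 0.225. Col22a1, which sits at junctions between muscle and tendon, stood at 10, 18 and 15 against 7, 9 and 4, with a log2 fold change of 1.02 ± 0.39 (SE) and a limma adjusted p of 0.23. Col9a1, Col9a2 and Col9a3, the chains of type IX collagen, had log2 fold changes of -0.23, -0.30 and -0.38, and knockout replicate 1 was the lowest of the 6 libraries for each. Their values there were 39, 106 and 16, against 66 to 79, 160 to 188 and 34 to 36 in the wildtype libraries. Without knockout replicate 1 the log2 fold changes were 0.09, -0.10 and -0.02. Cartilage and valve matrix markers summed to 509, 642 and 773 in the knockout and 542, 527 and 515 in the wildtype libraries, and 0 of 7 tested members passed. The smallest p of these markers belonged to Cnmd, Sox9 and Matn4, with log2 fold changes of 1.02, 0.27 and -0.80 (limma adjusted p = 0.312, 0.335 and 0.355).

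**Figure D3:**
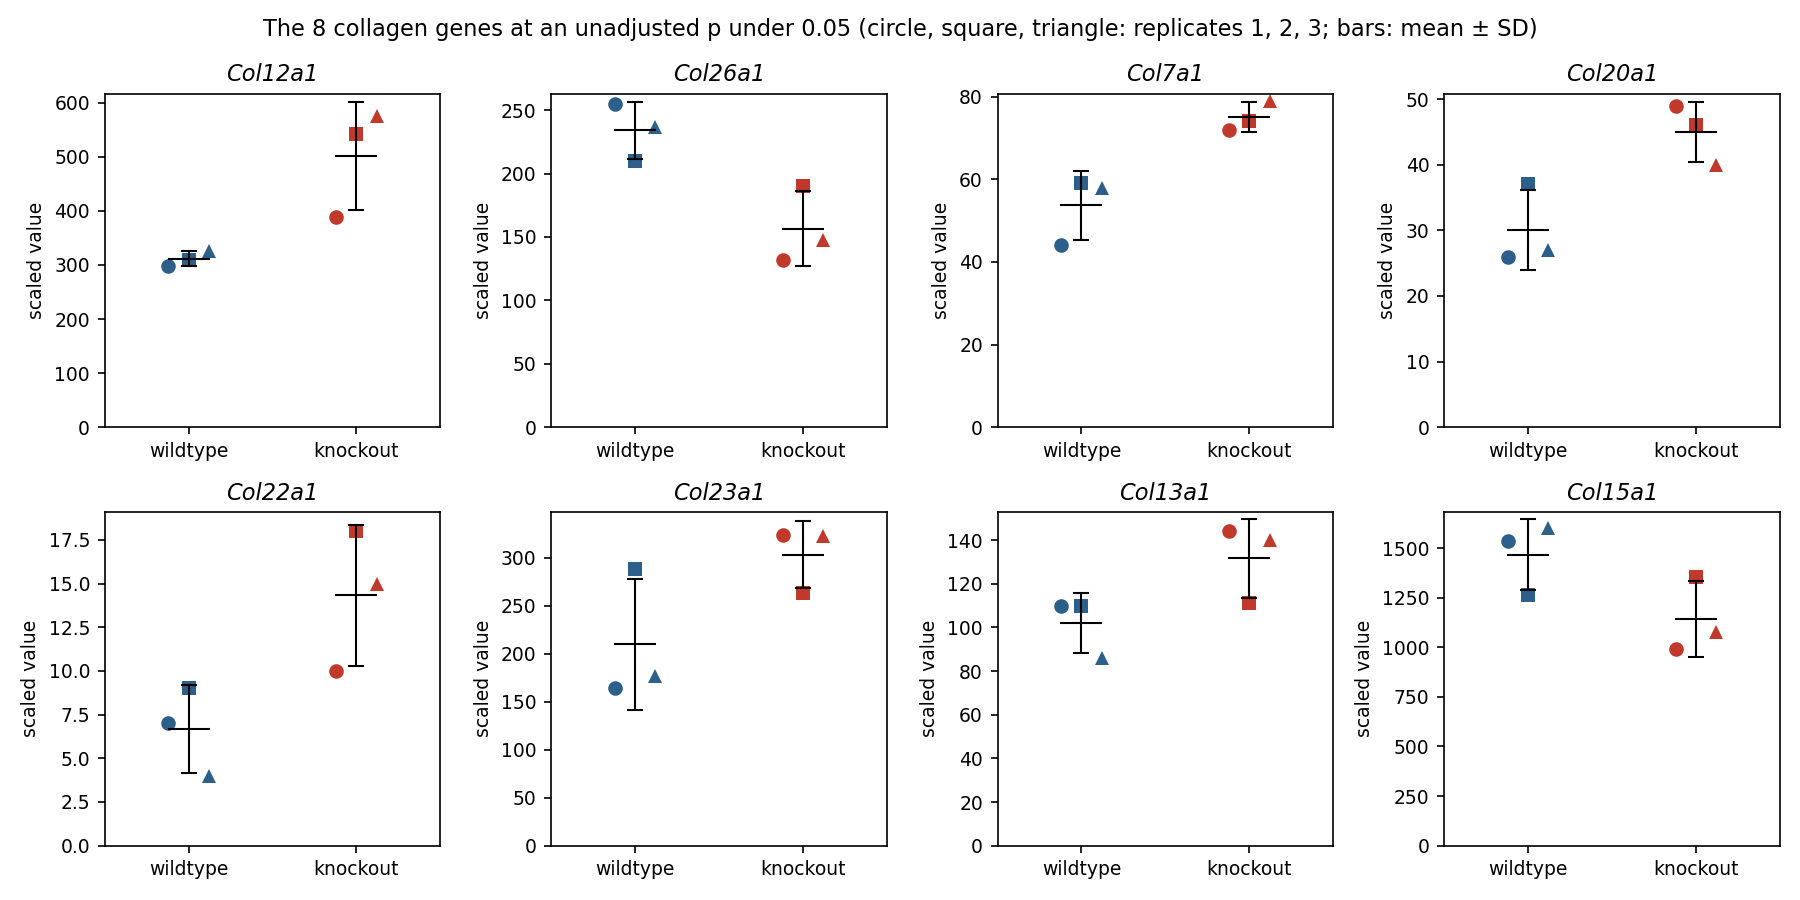
Scaled values of the 8 collagens with an unadjusted p under 0.05 in the wildtype (blue) and knockout (red) libraries, with the mean and SD of each group and each axis starting at 0. The groups are apart for Col12a1, Col26a1, Col7a1, Col20a1, Col22a1 and Col13a1, and overlap for Col23a1 and Col15a1.

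The other collagens were led by type VI. Col6a2 stood at 1933, 2103 and 1961 in the knockout and 2002, 1872 and 2147 in the wildtype libraries, Col6a1 at 1618, 1842 and 1660 against 1790, 1623 and 1881, and Col6a3 at 916, 1269 and 1034 against 1027, 977 and 933. Their log2 fold changes were 0.00, -0.05 and 0.12, and the groups overlapped for each. Col6a6 had a log2 fold change of -0.11, while Col6a4 (3, 0 and 3 against 2, 3 and 0) and Col6a5 (4, 5 and 4 against 11, 6 and 2) from the same cluster on chromosome 9 were too low to test. Col10a1, the collagen of hypertrophic cartilage, stood at 1, 1 and 3 in the knockout and was listed at 0 in all wildtype libraries. Col17a1, of the junctions that anchor epithelia, stood at 10, 7 and 7 against 14, 5 and 6.

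Col26a1, which encodes a small secreted collagen with an EMI domain, had the second smallest p of all collagens. It lies on chromosome 5 (mm39, chr5:136770613-136912063, minus strand). The scaled values were 132, 190 and 148 in the knockout and 255, 210 and 237 in the wildtype libraries, and every knockout library lay below every wildtype library. The log2 fold change was -0.59 ± 0.14 (SE), a fold of 0.665 (95% interval 0.531 to 0.833), with a limma adjusted p of 0.0947. It passed in 1 of the 19 alternatives, at -0.73 without knockout replicate 2 (limma adjusted p = 0.0189, with 3.34% of all genes called), and ran from -0.73 to -0.42 over all of them, with adjusted p up to 0.407.

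Smooth muscle and pericyte markers summed to 6493 to 6805 in the knockout and 6812 to 7248 in the wildtype libraries, again without overlap. None of the 9 passed, and the smallest p belonged to Myh11, Acta2 and Notch3, with log2 fold changes of -0.61, -0.32 and 0.21 (limma adjusted p = 0.057, 0.11 and 0.155). Fibroblast markers summed to 8773 to 9733 against 8701 to 9523, so these sums overlapped. Their median log2 fold change was 0.0, and 0 of 12 passed, with Vcan, Mfap5 and Tcf21 at 0.28, 0.56 and 0.38 (limma adjusted p = 0.0669, 0.081 and 0.0859). Among 10 epicardium markers only Krt8 passed, at 93, 90 and 78 in the knockout against 35, 31 and 32 (log2 fold change 1.38, limma adjusted p = 0.0202). This call ended without knockout replicate 1 (limma adjusted p = 0.0867) and without wildtype replicate 1, 2 or 3 (0.131, 0.099 and 0.146). These fits called only 0.0405%, 0.0203%, 0.0% and 0.0% of all genes, so few calls could remain in them. Of the 10 log2 fold changes 6 were below 0, and the median was -0.23. Aldh1a2 stood at 198, 297 and 132 against 309, 317 and 352 (log2 fold change -0.71, limma adjusted p = 0.265). Lrrn4, Upk3b and Msln, named with Aldh1a2 after their values were seen, had log2 fold changes of -0.84, -0.74 and -0.50, with knockout replicate 3 lowest at 22, 79 and 136. Without that library Lrrn4 and Msln were at 0.03 and -0.01, while Upk3b stayed below 0 in every alternative (-1.08 to -0.17). The 3 genes did not pass the comparison of knockout with wildtype in any alternative. They passed only the interaction test of genotype with sex given below. It rests on 1 female library per group, knockout replicate 3 and wildtype replicate 1. Aldh1a2 passed in 1 of 19 alternatives, without knockout replicate 2 (limma adjusted p = 0.0192, with 3.34% of all genes called). It was at -0.27 with the recovered depth as a term. The sum of the epicardium markers was 1407 to 2265 against 1928 to 2121. Of the cardiomyocyte markers 0 of 8 passed, with the smallest p for Myh7, Tnnt2 and Myl7 (log2 fold changes 0.25, -0.20 and -0.40; limma adjusted p = 0.0901, 0.189 and 0.264). Of the neighbouring tissue markers, Cidea and Sox10 did not pass (log2 fold changes 0.18 and 0.33; limma adjusted p = 0.461 and 0.711). No measured marker was at 0 in every library, and the part of these cell types in the values of Col26a1, Col12a1 or any other collagen was not tested.

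Col23a1, Col13a1 and Col25a1 encode collagens that span the plasma membrane. Col23a1 stood at 324, 263 and 322 in the knockout and 164, 288 and 177 in the wildtype libraries, with wildtype replicate 2 inside the knockout range (log2 fold change 0.57 ± 0.21 SE, limma adjusted p = 0.236). Over the alternatives its log2 fold change ran from 0.25 with the depth term to 0.82 without wildtype replicate 2. Col13a1 stood at 144, 111 and 140 against 110, 110 and 86, just without overlap (log2 fold change 0.37 ± 0.16 SE, limma adjusted p = 0.29), and its value with the depth term was 0.13. Col25a1 stood at 44, 42 and 36 against 34, 76 and 40, a log2 fold change of -0.21 that was 0.13 without wildtype replicate 2. Col7a1, which forms anchoring fibrils under epithelia, stood at 72, 74 and 79 against 44, 59 and 58 (log2 fold change 0.49 ± 0.18 SE, limma adjusted p = 0.211). Each of the 8 genes with an unadjusted p under 0.05 kept its sign in every alternative in which it could be fitted. Col22a1 could be fitted in 14 and Col20a1 in 18 of the 19 alternatives. The 8 genes were picked by p in the same libraries that the alternatives refit, so a kept sign is no separate support. The remaining members of the class, Col8a1, Col8a2 and Col28a1, had log2 fold changes of 0.23, -0.07 and -0.34.

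Summed over a class, the groups were close. The fibrillar collagens summed to a scaled value of 14513 ± 1372 in the knockout and 14836 ± 1034 in the wildtype (SD, n = 3 each), a ratio of 0.978. The ratio was 0.981 for the basement membrane collagens, 1.09 for the FACIT collagens, 1.01 for the others and 0.991 for all collagens. Each of these differences was smaller than the SD of the knockout libraries.

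The knockout libraries differed among themselves in a pattern shared by many collagens. Knockout replicate 1 was the lowest knockout library for 28 of 39 tested collagens, including 10 of 11 fibrillar and 7 of 8 FACIT genes, and knockout replicate 2 was the highest for 22 of 39. Over all 14974 tested genes, replicate 1 was lowest for 4204 and replicate 2 was highest for 5077. The median SD of a collagen on the log2 scale was 0.23 over the knockout and 0.14 over the wildtype libraries, against 0.15 and 0.11 for all genes.

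Ratios of chains within a library were steady for some pairs and not for others. Ratios were formed per kilobase of the transcript with the longest coding sequence, and no ratio was tested. Col4a1 over Col4a2, the pair with the shared start shown above, was 1.07, 1.05 and 1.09 in the knockout and 1.06, 1.09 and 1.06 in the wildtype libraries, a coefficient of variation over the 6 libraries of 1.46%. Alone, Col4a1 varied by 5.12% and Col4a2 by 6.31%. Col1a1 over Col1a2, on different chromosomes, was 1.02, 1.01 and 1.02 against 1.05, 1.04 and 1.07 (2.4%), with 10.7% and 9.59% for the single genes. Col3a1 over Col1a1, from different molecules, varied by 3.32% around 1.1. Col6a1 over Col6a2 was 0.834 on average (2.43%) and Col5a1 over Col5a2 was 1.34 (3.57%). All values of a library share its depth and scaling factor.

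Other pairs varied more. Col6a1 over Col6a3 was 4.21 on average, with 11.1% variation, and Col4a1 over Col4a5 was 3.36 (8.74%). The ratios outside the planned set, which were added with the values known, included Col9a1 over Col9a2 at 0.325 (10.3%), Col8a1 over Col8a2 at 0.529 (17.0%) and Col4a3 over Col4a4 at 0.365 (20.2%). Col4a5 over Col4a6, the pair whose windows are printed above, was 9.4, 6.81 and 5.69 in the knockout and 5.41, 5.1 and 6.63 in the wildtype libraries (24.1%). In that pair Col4a5 alone varied by 4.47% and Col4a6 by 19.9%, with values of 136, 183 and 218 against 215, 244 and 172 for Col4a6.

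**Figure D4:**
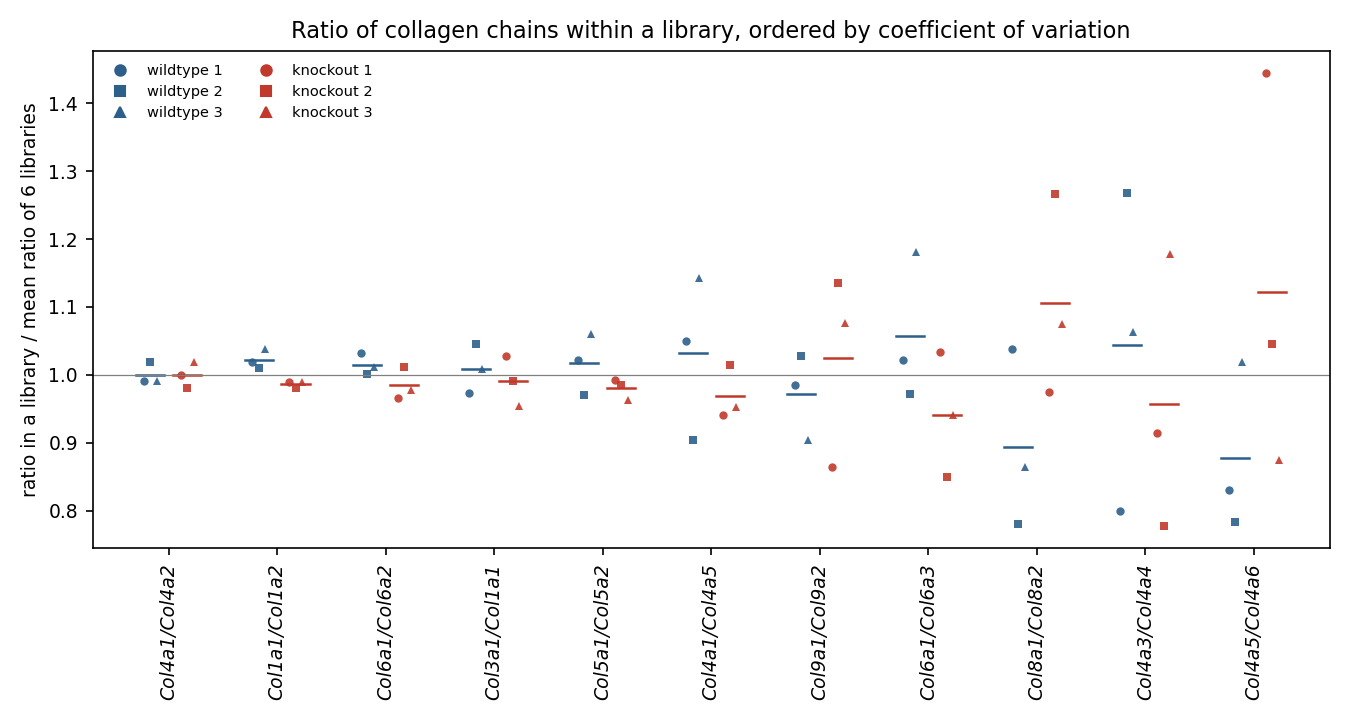
Ratio of collagen chains per kilobase in each library divided by the mean ratio of the 6 libraries, for 11 pairs ordered by coefficient of variation, with bars for group means. Col4a1 over Col4a2, Col1a1 over Col1a2 and Col6a1 over Col6a2 stay close to 1 in all libraries, and Col4a5 over Col4a6 spreads most.

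The knockout libraries were sequenced more deeply on average, and the highest collagens had their highest values in the shallowest library of each group. In the knockout, replicate 2 had the fewest reads and the highest values of Col1a1 (3440) and Col4a1 (4228). Replicate 3 had the most reads, and Col4a1 (3948) and Col4a2 were lowest there. Col1a1 was lowest in knockout replicate 1 instead (2738, against 3045 in replicate 3), as were Col1a2, Col3a1, Col6a1 and Col6a2. In the wildtype, replicate 3 had the fewest reads and the highest values (3603 and 4357), and replicate 2 had the most reads and the lowest (2913 and 3767). The 7 collagens above 0.4 recovered reads per base of transcript (Col4a1, Col3a1, Col4a2, Col1a1, Col1a2, Col6a2 and Col6a1) had a median log2 fold change of -0.05, and the other 32 tested collagens one of 0.09. With the recovered depth as a term in the limma fit, an alternative added with the data known, 0 of 14974 genes passed (0.0%), and the log2 fold changes were 0.05 for Col1a1, 0.03 for Col3a1 and 0.07 for Col6a1 in place of -0.11, -0.13 and -0.05. The sign of these 3 genes thus differed between the fits, and none of the values passed the test.

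The genes that make, export, bind and break down collagen were examined in 6 lists, with 65 of 67 measured members tested. Of these 1 rose and 0 fell (limma, adjusted p under 0.05), against 0.508% and 0.434% of all genes in those directions. Their median log2 fold change was 0.03, with 38 above and 27 below 0. The gene that rose was Cspg4, a proteoglycan of pericytes that binds collagen VI, with 1096, 1246 and 1278 in the knockout and 958, 858 and 860 in the wildtype libraries. Every knockout library lay above every wildtype library, and the log2 fold change was 0.43 ± 0.08 (SE; limma adjusted p = 0.0472). The call of Cspg4 ended in 11 of the 19 alternatives, with limma adjusted p from 0.0533 to 0.227. Among them were the fits without knockout replicate 1 (0.0917) and without wildtype replicates 1, 2 or 3 (0.161, 0.145 and 0.227). Without those libraries only 0.0405%, 0.0203%, 0.0% and 0.0% of all genes were called, so the loss there is not particular to Cspg4.

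Enzymes that fold and modify chains in the endoplasmic reticulum had 0 of 20 calls. P3h2, a prolyl 3-hydroxylase that acts on type IV collagen, came closest, at 208, 206 and 411 in the knockout and 118, 125 and 100 in the wildtype libraries, without overlap. Its log2 fold change was 1.19 ± 0.27 (SE), with a limma adjusted p of 0.0947. It passed in 3 of the 19 alternatives. These were the fits without knockout replicate 3 (0.86, limma adjusted p = 0.00258), the library with the highest value, with sex as a term (1.19, limma adjusted p = 0.0312) and in male libraries only (0.88, limma adjusted p = 0.00854). Of all genes these 3 fits called 4.75%, 1.49% and 1.78%, against 0.942% in the reported fit. Over all 19 alternatives the log2 fold change of P3h2 ran from 0.74 to 1.35 and its adjusted p up to 0.353. P4ha2, a subunit of prolyl 4-hydroxylase, stood at 349, 310 and 352 against 275, 288 and 229 (log2 fold change 0.36, limma adjusted p = 0.142). Fkbp14, a proline isomerase, stood at 242, 231 and 337 against 182, 220 and 175 (log2 fold change 0.47, limma adjusted p = 0.18). The collagen chaperone gene Serpinh1 had 1127, 1241 and 1066 against 1255, 1111 and 1326, a log2 fold change of -0.10 (0.05 with the depth term), and was picked for its role with its values known.

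The export list, with the coat proteins and adaptors that load bulky procollagen, had 0 of 9 calls and log2 fold changes within -0.10 to 0.12. Sec23a, Mia2 and Sec31a had the smallest p, with log2 fold changes of 0.12, -0.10 and 0.08 (limma adjusted p = 0.397, 0.475 and 0.542). Of the enzymes that trim procollagen ends, 0 of 7 tested passed. Adamts2 stood at 707, 887 and 974 against 699, 685 and 657 (log2 fold change 0.32, limma adjusted p = 0.195), Adamts14 had a log2 fold change of 0.52 and Adamts3 one of -0.19 (limma adjusted p = 0.285 and 0.752). Adamts14 passed without knockout replicate 2 (0.75, limma adjusted p = 0.0407), in a fit that called 3.34% of all genes.

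Crosslinking enzymes had 0 of 5 calls. Lox, which oxidises lysines so that fibrils can crosslink, stood at 468, 566 and 1002 in the knockout and 421, 460 and 415 in the wildtype libraries, with knockout replicate 3 far above the others (log2 fold change 0.57 ± 0.27 SE, limma adjusted p = 0.356). Loxl3 and Loxl1 had log2 fold changes of 0.24 and 0.09 (limma adjusted p = 0.393 and 0.675). Of the collagen receptors, 1 of 11 passed, Cspg4. In the degradation list 0 of 13 tested genes passed. Timp4, an inhibitor of matrix metalloproteinases, stood at 492, 266 and 487 against 132, 268 and 144, with knockout replicate 2 and wildtype replicate 2 at nearly the same value (log2 fold change 1.21 ± 0.35 SE, limma adjusted p = 0.175). Ctsk and Timp1 had log2 fold changes of 0.35 and -0.26 (limma adjusted p = 0.345 and 0.365).

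**Figure D5:**
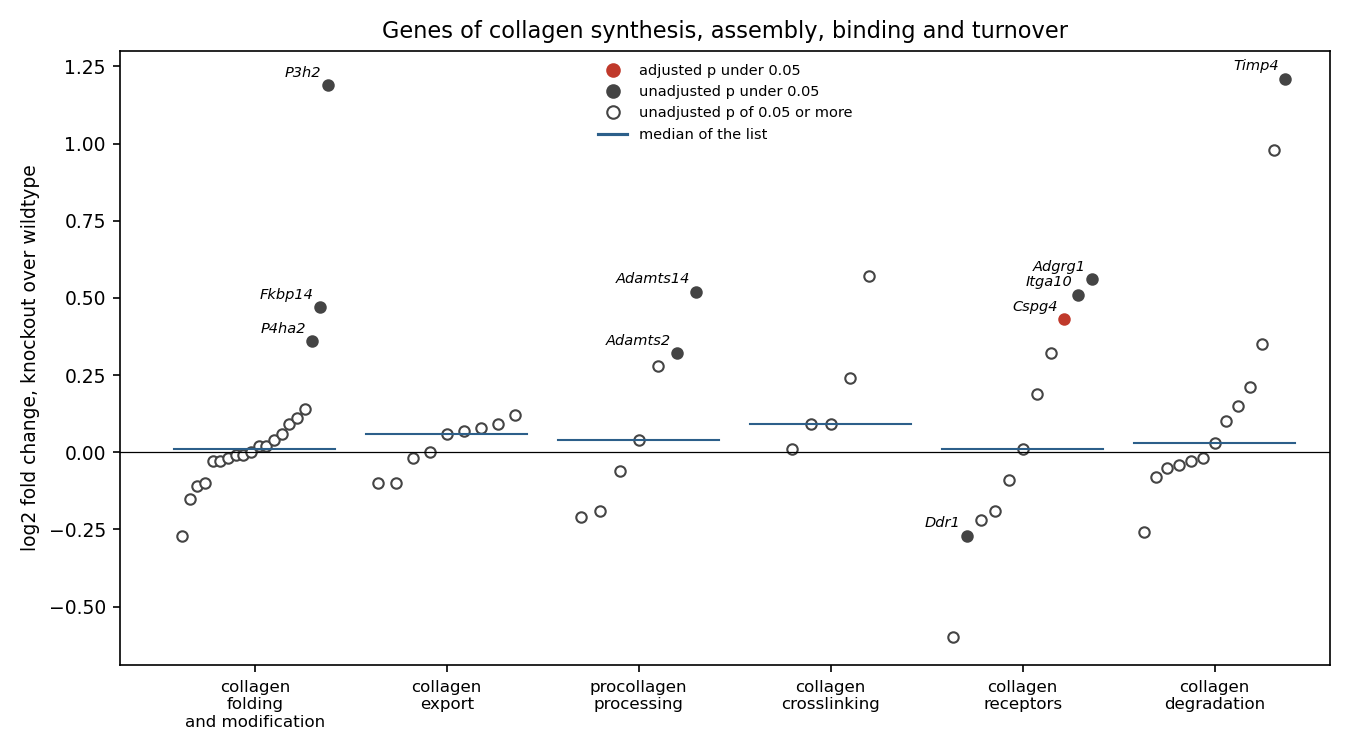
Log2 fold change of knockout over wildtype for the 65 tested genes of 6 lists around collagen, with a red point for the gene at an adjusted p under 0.05, filled grey points at an unadjusted p under 0.05 and a line for the median of each list. The medians lie between 0.01 and 0.09, and Cspg4 is the gene in red.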

How the data were processed

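Mouse heart RNA was sequenced single-end, as 3 Rbpms knockout and 3 wildtype stranded mRNA libraries, per the labels' protocols. The submitters' processing notes name Trimmomatic 0.39, STAR 2.7.11a, Picard 3.0.0, featureCounts 2.0.4, DESeq2 1.36.0 and the build mm39, without roles. How the counting used strand was not given in the sources used here. Values as deposited are a score: reads that the authors scaled by library and rounded, as the spacing of low values shows. Of values under 400, 100% equalled a whole read number times the library factor, exact after rounding. In knockout replicates 1 and 3 and wildtype replicate 2 the factor was under 1 (0.9371, 0.8524 and 0.9568). Any whole number meets this rule there, so the 100% shows nothing for these libraries. In them 11.26%, 30.56% and 6.61% of these values had several read numbers that round to the same value. A count model was planned for raw counts only and was not used.

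The 14974 of 20893 genes that reached 10 in 3 or more libraries were fitted with limma 3.58.1 (statmod 1.5.0, R 4.3.3) on log2(value + 1), with trend and robust moderation, no covariate and two-sided tests. P-values were adjusted by Benjamini-Hochberg with a threshold of 0.05. Fits were tested on simulated data. Transcript lengths came from a GRCm38 annotation by gene identifier (98.2% of tested genes). Of 44 classified collagen symbols, Col19a1 is not analysed here.

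Per-library values are given for tested collagens with an unadjusted p under 0.05 and the 3 highest of each class. From other lists, called genes or the 3 with the smallest p are named, except 1 marker that is not reported here. Further collagens, Serpinh1 and 4 epicardium markers were named with their values known. The members and lists were chosen with earlier results of these data known. Alternatives covered pseudocount, filter, scaling, moderation, single libraries, replicate number, sex and depth. Sex was read from Xist and Y-linked genes.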

Additional observations from a re-analysis of the deposited data

Results flagged for a closer look

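Among the 65 tested genes that make, export, bind and break down collagen, 2 passed an interaction test of genotype with sex, P3h4 and Lox. This limma test, run over all genes, called 182 of 14974 (1.22%). The test rests on 1 female library per group, knockout replicate 3 and wildtype replicate 1, so sex and single library cannot be told apart. P3h4, a partner of the prolyl 3-hydroxylases, had 342 in the female and 499 and 523 in the male knockout libraries, against 493 in the female and 419 and 444 in the male wildtype libraries. The difference of log2 fold changes, female minus male, was -0.77 (limma adjusted p = 0.0327). For Lox the values were 1002 against 468 and 566 in the knockout and 421 against 460 and 415 in the wildtype libraries, and the difference was 1.01 (limma adjusted p = 0.0163). Of the collagens themselves, 0 of 39 passed this test, and the smallest adjusted p was 0.378. An unadjusted limma p under 0.05 was found for 1 of 39 collagens and 12 of the 65 genes above, against 1839 of all 14974.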

How the results depend on the processing

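Of 39 tested collagens, Col4a1, Col4a2 and Col6a2 had a log2 fold change of 0.00 and went from -0.05 to 0.1, -0.07 to 0.13 and -0.05 to 0.09 over the alternatives. Of the other 36, 21 had no opposite sign in any alternative and 15 had one. Over 673 pairs of these 36 and an alternative, 649 kept their side of the threshold and their direction and 4 passed it, all without a knockout replicate and given with Col12a1, Col15a1 and Col26a1. With the recovered depth as a term the sign turned for Col1a1 (0.05), Col1a2 (0.09), Col3a1 (0.03), Col6a1 (0.07), Col8a2 (0.11) and Col4a3 (-0.26). Without single libraries it turned for further genes, given here with the lowest and highest value of the 6 such fits. Without knockout replicate 1 the sign turned for Col9a1 -0.39 to 0.09, Col1a2 -0.14 to 0.03, Col8a2 -0.36 to 0.21 and Col14a1 -0.14 to 0.08. Without knockout replicate 2 the sign turned for Col8a1 -0.16 to 0.6, Col18a1 -0.02 to 0.09, Col27a1 -0.01 to 0.27, Col5a1 -0.02 to 0.09, Col6a3 -0.01 to 0.23 and Loxl1 -0.01 to 0.15. Without wildtype replicate 2 the sign turned for Col25a1 -0.44 to 0.13, Col16a1 -0.01 to 0.25 and Adamts3 -0.34 to 0.05. Col5a1 was also -0.01 without wildtype replicate 2 and -0.05 under quantile normalization, and Col4a3 was -0.15 in male libraries only. Lrrn4 was 0.03 without knockout replicate 3 (range -1.3 to 0.03) and 0.1 in male libraries only, and Serpinh1 was 0.05 with the depth term. P3h4, at -0.01, was 0.18 without knockout replicate 3 and 0.05 without wildtype replicate 1 (range -0.13 to 0.18), 0.24 in male libraries only and 0.22 with the depth term. The cause was not tested for any of these.

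Leaving out single libraries gave 0 to 1 collagens higher and 0 to 2 lower. For the 65 collagen machinery genes the same fits gave 0 to 3 higher, 3 of 64 tested without knockout replicate 2 and 2 of 63 without knockout replicate 3. Of all genes these 2 fits called 3.34% and 4.75%, both directions together. The count higher was 1 in the reported fit, 2 with a sex term and 2 in male libraries only. Those 3 fits called 0.942%, 1.49% and 1.78% of all genes. It was 0 with a mean value of at least 50, equal totals, quantile normalization, voom, ordinary moderation or the depth term. Replicate numbers do not pair the libraries: same-numbered deviations correlated at -0.169, -0.111 and -0.13, and no library correlated best with its own number. The highest values were 0.125 for knockout replicate 1 with wildtype replicate 2, 0.136 for knockout 2 with wildtype 3 and 0.124 for knockout 3 with wildtype 1. A fit with that matching was not run, so a pairing across numbers was not tested. A fit with the replicate number as a block called 23 genes (0.154%), with 0 collagens and 0 machinery genes higher. Without wildtype replicates 2 or 3, 0 genes passed anywhere. For 42 other named genes, 745 of 794 such pairs kept side and direction, 18 passed the threshold and 22 lost it. Krt8 lost its call without knockout replicate 1 (adjusted p = 0.0867) or any 1 wildtype replicate (0.099 to 0.146), with the block (0.0767) and with the depth term (0.116). Rbpms lost its call without knockout replicate 1 (0.0522) or any 1 wildtype replicate (0.0948 to 0.137) and with the depth term (0.0892), always with a log2 fold change of -1.55 or lower. These are limma values.

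Chain ratios depend on the length used. With values not divided by length, Col1a1 over Col1a2 was 1.15, Col4a1 over Col4a2 1.10, Col6a1 over Col6a2 0.866, Col5a1 over Col5a2 1.70 and Col6a1 over Col6a3 1.71. With the union of all exons, chosen with the data known, the ratios were 2.17, 0.973, 1.65 and 1.92 for the first 4, and Col4a1 over Col4a5 was 3.06. Low collagens such as Col22a1 rest on about 10 reads per library, and the precision covers counting error and library spread only.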

Other observations

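Outside the collagen family, 20 tested genes for secreted or membrane proteins with collagen-like stretches were examined, chosen with their values known, and 0 passed an adjusted p of 0.05 (limma). Eda, a ligand of skin appendage development, stood at 143, 156 and 148 in the knockout and 195, 219 and 195 in the wildtype libraries (log2 fold change -0.44, limma adjusted p = 0.0785). C1qtnf1 stood at 408, 336 and 404 against 299, 305 and 257 (log2 fold change 0.41, limma adjusted p = 0.0991). In both genes the groups did not overlap. Colq, the collagen tail of acetylcholinesterase, stood at 246, 190 and 72 against 79, 98 and 119, so knockout replicate 3 lay below and the other knockout libraries above the wildtype range. C1qtnf9 stood at 28, 48 and 153 against 85, 76 and 76, with knockout replicate 3 above and the other knockout libraries below it.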
